A study of Mus musculus with 34 samples.

Results

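Trimethylation of lysine 4 on histone H3 (H3K4me3) was mapped by chromatin immunoprecipitation and sequencing in limb and in forebrain of CD1 mouse embryos of embryonic day 11.5. The deposited limb list holds 19688 rows and the forebrain list 16544, each row being a genomic interval in build mm9 with a rank. These 36232 rows are part of 354733 rows in 30 lists of a series on tagged transcriptional coactivators. Rows were classed by overlap of at least 1 bp as limb only, forebrain only or in both, and regions in both lists were compared by width. Each tissue is 1 library of tissue pooled from about 150 embryos of both sexes, so there is no replicate and no test between the tissues. Intervals given with shares are exact 95% binomial (Clopper-Pearson) intervals and cover counting error only. The lists carry no read counts, so library depth is unknown. Both tissues are mixtures of cells, in which fewer cells with the mark and less mark per cell cannot be told apart.

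H3K4me3 is laid down around the starts of genes by the COMPASS and MLL family of methyltransferases and is recognised by subunits of the general transcription machinery. Most genes carry it as a narrow domain over a CpG-rich promoter, while genes of cell identity and developmental regulators often carry it as a wide domain that reaches into the gene body. Where H3K4me3 lies together with H3K27me3, the mark of Polycomb repression, a promoter is called bivalent, a state known from stem cells and embryonic tissues. Limb buds of this age are made mostly of lateral plate mesenchyme under an ectodermal cap, with entering muscle precursors, vessels and nerves, and forebrain is made of neural progenitors and the neurons that they have begun to produce.

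Promoters of genes on which the comparison turned are printed here with each CG dinucleotide in capitals, since unmethylated CpG is a feature that recruits H3K4 methyltransferases. They come from RefSeq (GRCm38.p6) and run from 250 bases before to 50 bases after the gene start, 5′ to 3′ on the gene's strand. Hand2, a bHLH factor of the posterior limb bud, had the start in a limb row only and its promoter is chr8:57320733-57321032 on the plus strand. Hoxa13, which patterns the hand and foot, had the start in the widest row of either list and its promoter is chr6:52260831-52261130 on the minus strand. Tbx4, the T-box factor of the hindlimb, lies in a region that was 11.8-fold wider in limb, and its promoter is chr11:85896515-85896814 on the plus strand. Nr2e1, an orphan nuclear receptor of neural stem cells, and Fezf2, a zinc finger factor of the forebrain, had starts in forebrain rows only, with promoters chr10:42583541-42583840 on the minus strand and chr14:12345816-12346115 on the minus strand. Pou3f3, a POU factor of the developing cortex, had the start in the widest forebrain row and its promoter is chr1:42695518-42695817 on the plus strand. Ins1, an insulin gene of the pancreas, had the start in no row and its promoter is chr19:52264047-52264346 on the plus strand. The CG counts were 45 for Hoxa13, 20 for Fezf2, 19 for Nr2e1, 18 for Pou3f3, 17 for Hand2, 8 for Tbx4 and 0 for Ins1. Of these, the promoter of Tbx4 was the only one that held TATAAA on either strand.
Hand2: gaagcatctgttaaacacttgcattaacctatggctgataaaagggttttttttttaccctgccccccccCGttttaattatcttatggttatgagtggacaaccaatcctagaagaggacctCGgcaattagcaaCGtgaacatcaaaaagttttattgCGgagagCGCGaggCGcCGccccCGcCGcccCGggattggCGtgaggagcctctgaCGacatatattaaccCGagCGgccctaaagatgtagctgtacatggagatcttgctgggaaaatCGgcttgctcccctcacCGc
Hoxa13: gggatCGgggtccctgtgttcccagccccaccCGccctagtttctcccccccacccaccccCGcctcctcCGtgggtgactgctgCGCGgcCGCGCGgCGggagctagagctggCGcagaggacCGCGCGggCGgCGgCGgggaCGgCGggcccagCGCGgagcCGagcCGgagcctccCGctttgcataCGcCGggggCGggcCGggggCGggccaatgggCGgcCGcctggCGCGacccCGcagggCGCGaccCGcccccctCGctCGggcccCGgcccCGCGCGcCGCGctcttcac
Tbx4: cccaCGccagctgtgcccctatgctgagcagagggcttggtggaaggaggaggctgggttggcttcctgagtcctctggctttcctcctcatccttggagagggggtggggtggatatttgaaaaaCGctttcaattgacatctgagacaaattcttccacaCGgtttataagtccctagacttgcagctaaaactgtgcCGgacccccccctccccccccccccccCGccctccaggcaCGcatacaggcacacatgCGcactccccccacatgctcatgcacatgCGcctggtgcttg
Nr2e1: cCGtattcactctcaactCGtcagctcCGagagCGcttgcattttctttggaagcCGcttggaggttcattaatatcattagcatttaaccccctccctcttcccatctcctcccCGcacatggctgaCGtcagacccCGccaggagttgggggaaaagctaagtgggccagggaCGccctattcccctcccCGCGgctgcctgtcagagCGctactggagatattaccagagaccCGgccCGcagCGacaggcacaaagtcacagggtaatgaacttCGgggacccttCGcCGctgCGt
Fezf2: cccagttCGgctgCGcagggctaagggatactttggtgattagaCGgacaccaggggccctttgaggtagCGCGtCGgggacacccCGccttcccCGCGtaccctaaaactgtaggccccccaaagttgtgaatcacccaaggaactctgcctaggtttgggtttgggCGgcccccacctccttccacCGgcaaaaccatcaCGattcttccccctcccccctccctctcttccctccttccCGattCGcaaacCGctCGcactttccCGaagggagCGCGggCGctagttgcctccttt
Pou3f3: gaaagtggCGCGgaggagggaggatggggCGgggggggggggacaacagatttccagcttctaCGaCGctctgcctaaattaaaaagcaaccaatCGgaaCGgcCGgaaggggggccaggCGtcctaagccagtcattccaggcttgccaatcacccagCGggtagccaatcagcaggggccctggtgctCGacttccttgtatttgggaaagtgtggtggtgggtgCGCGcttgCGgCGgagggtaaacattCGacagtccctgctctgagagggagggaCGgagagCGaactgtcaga
Ins1: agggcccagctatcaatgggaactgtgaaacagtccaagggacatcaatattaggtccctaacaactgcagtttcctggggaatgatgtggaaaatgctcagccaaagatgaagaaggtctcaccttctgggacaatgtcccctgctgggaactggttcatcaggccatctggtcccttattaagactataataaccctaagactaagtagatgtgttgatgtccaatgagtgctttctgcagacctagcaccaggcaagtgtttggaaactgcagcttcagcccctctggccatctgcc

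The absence of a row is not a measurement of absent mark. The start of Actb, which encodes beta-actin, lay in no H3K4me3 row of either tissue, with the nearest limb row 2265 bp and the nearest forebrain row 3506 bp away, although 12 of the 28 other lists covered it. Pgk1, a glycolytic enzyme, counted as limb only because its start lay 11 bp outside the forebrain row. Gaps of this kind were rare where another active mark was present, since 8191 of the 8347 genes with a start in a limb H3K27ac row (98.1%, 97.8% to 98.4%) also had one in a limb H3K4me3 row. No row of the limb list lay closer than 1000 bp to the next, and none of the forebrain list closer than 1008 bp, so nearby enriched stretches appear as 1 row.

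Most rows were present in both tissues. Of the limb rows, 15472 (78.6%) overlapped a forebrain row and 4216 were limb only (21.4%, 20.8% to 22.0%). Of the forebrain rows, 15410 (93.1%) overlapped a limb row and 1134 were forebrain only (6.85%, 6.47% to 7.25%). The limb list is the longer one, and with both limited to their 16544 best ranked rows 9.82% of limb rows and 9.97% of forebrain rows were in 1 tissue only. The rows in both lists formed 15358 regions, of which 15203 joined 1 limb row and 1 forebrain row.

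Rows of 1 tissue only sat low in their lists. What quantity the rank orders is not stated. The Spearman correlation of rank with width over all rows of a list was -0.715 in limb and -0.643 in forebrain, so that lower rank numbers went with wider rows. In limb, 0.66% of the rows in the first decile of ranks were limb only (0.352% to 1.13%), and 85.4% of those in the last decile (83.8% to 86.9%). In forebrain, 0.362% of the first decile (0.133% to 0.787%) and 40.4% of the last decile (38.0% to 42.8%) were forebrain only. Through the sixth decile of either list, no decile had more than 1.93% of its rows in 1 tissue only. Exceptions at the top of the lists are therefore few: 13 limb only rows fell into the first decile of limb ranks and 6 forebrain only rows into the first decile of forebrain ranks.

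**Figure D1:**
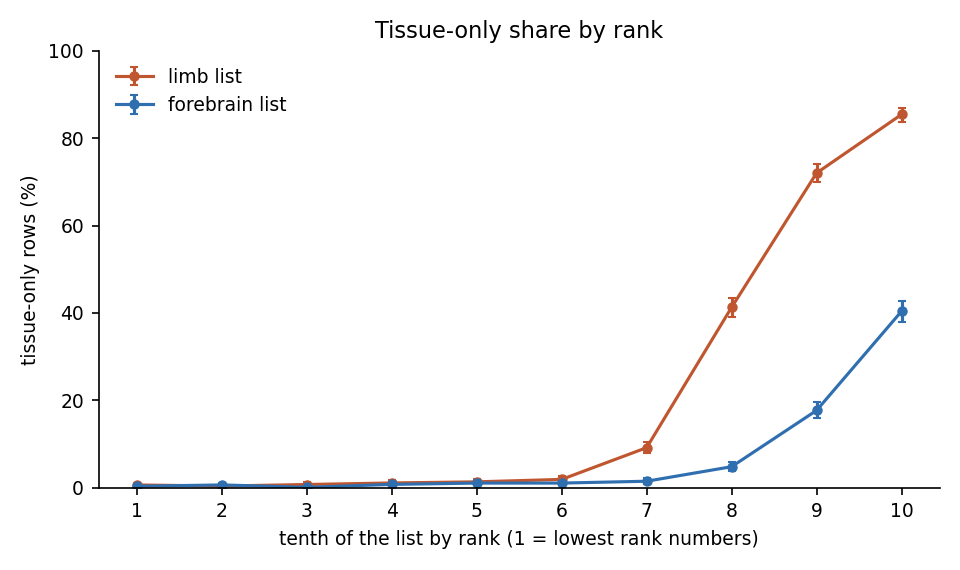
Share of rows found in 1 tissue only (vertical axis, %) in each decile of the limb and forebrain lists by rank (horizontal axis, 1 holding the lowest rank numbers), with exact 95% binomial intervals as bars. Both lines stay under 2% through the sixth decile and rise to 85.4% in limb and 40.4% in forebrain in the last.

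They were also narrow. The median width was 919 bp in limb only rows (5th to 95th percentile 556 to 2280) and 1967 bp in limb rows in both (900 to 4330). It was 1223 bp in forebrain only rows (779 to 3089) and 2134 bp in forebrain rows in both (994 to 4627). Each class had a thin tail of very wide rows, up to 16871 bp in limb only, 12701 bp in forebrain only, 54882 bp in limb rows in both and 31425 bp in forebrain rows in both. In the 15358 regions in both lists, the limb width divided by the forebrain width had a median of 0.933, with a 5th to 95th percentile of 0.603 to 1.41. Few regions differed 2-fold or more: 224 were wider in limb, 1.46% of the regions, and 398 were wider in forebrain, 2.59%. At the edge of that rule, the closest region inside was 1667 bp in limb against 832 bp in forebrain, and the closest outside was 3179 against 1595 bp. In the other direction they were 645 against 1291 bp and 1797 against 3590 bp.

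**Figure D2:**
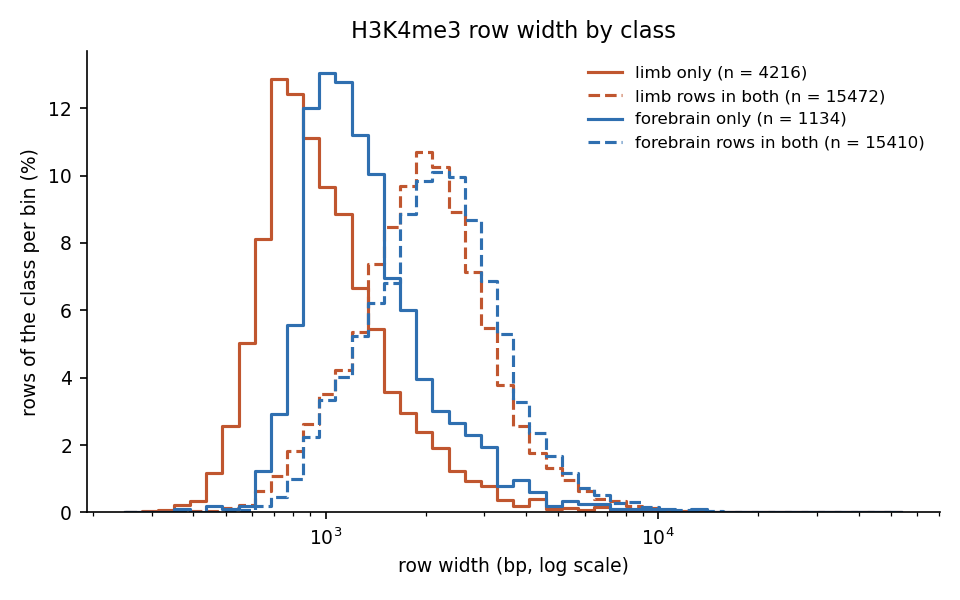
Width of H3K4me3 rows (horizontal axis, bp, log scale) as the share of rows of each class per bin (vertical axis, %), for limb (orange) and forebrain (blue) rows found in 1 tissue only (solid) or in both (dashed). Rows of 1 tissue only lie to the left of rows in both, with medians of 919 and 1223 bp against 1967 and 2134 bp.

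The classes also differed in where they lay. Gene starts were the points from which the deposited tables of the same series measured the distance to the nearest gene, worked out for 16001 gene names. A start lay within 1 kb of 71.5% of limb rows in both (70.7% to 72.2%) and of 11.2% of limb only rows (10.3% to 12.2%). The same shares were 71.8% of forebrain rows in both (71.1% to 72.5%) and 18.0% of forebrain only rows (15.8% to 20.4%). Both lists were also cut to their best ranked 50% before classing. Within 1 kb of a start then lay 78.6% of limb only and 77.5% of forebrain only rows. That cut drops lower ranked partner rows, so these rows include some that the full lists class as in both. The cut therefore cannot show where well ranked rows of 1 tissue lie. The median distance to the nearest start was 18664 bp from limb only rows and 14272 bp from forebrain only rows, while rows in both had a median of 0 because most held a start. Over 100 kb from any start lay 11.3% of limb only and 9.7% of forebrain only rows, against 3.31% of limb and of forebrain rows in both. Rows of 1 tissue were seldom near misses of the other: a row of the other tissue lay within 1 kb of 1.64% of limb only and 3.35% of forebrain only rows, with median gaps of 23160 bp and 17804 bp. Among the regions in both lists, a start lay inside 61.6% of those wider in limb (54.9% to 68.0%), 66.8% of those wider in forebrain (62.0% to 71.4%) and 71.5% of the rest.

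H3K4me1, a mark of enhancers and of the flanks of promoters, overlapped most rows of every class. Limb H3K4me1 overlapped 89.0% of all limb only rows and 86.8% of limb rows in both, and forebrain H3K4me1 overlapped 78.8% of all forebrain only rows and 80.0% of forebrain rows in both. Of the 3743 limb only rows more than 1 kb from a start, 89.2% overlapped limb H3K4me1 (88.2% to 90.2%) and 55.3% forebrain H3K4me1 (53.7% to 56.9%). Of the 930 forebrain only rows of that kind, 80.9% overlapped forebrain H3K4me1 (78.2% to 83.3%) and 69.6% limb H3K4me1 (66.5% to 72.5%), a list that holds 58181 rows against 34848 for forebrain. Limb H3K27ac, a mark of active enhancers and promoters, overlapped 38.2% of these limb only rows (36.6% to 39.8%) and 12.6% of these forebrain only rows (10.5% to 14.9%), against 63.8% of all limb rows in both. Overlap with the histone inputs, which are unenriched chromatin, was 0.522% of all limb only and 0.882% of all forebrain only rows, against 1.12% and 1.21% of limb and forebrain rows in both.

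The widest limb only rows that hold a gene start included rows at Tbx5, Hoxd9, Hand2 and Pitx1, which pattern the limb, and rows at genes of other roles. The widest of all limb only rows, chr5:120278677-120295547, was 16871 bp wide and held the start of Tbx5, the T-box factor that initiates the forelimb, and the nearest forebrain row was 20613 bp away. A further limb only row of 12589 bp lay beside it, with its edge 26.3 kb from the start of Tbx5. The row at Pitx1, the homeobox factor of the hindlimb, was 10896 bp wide with no forebrain row within 98835 bp. A forelimb and a hindlimb selector gene thus both had wide limb only rows, and the labels do not separate forelimb from hindlimb.

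Hand2, a posterior limb factor upstream of Sonic hedgehog, lay in a limb only row of 12772 bp whose limb rank of 661 placed it among the best ranked rows of the list. Scx, the bHLH factor of tendon progenitors, lay in one of 11291 bp, which ended 713 bp from a forebrain row. Dnm3os, a non-coding transcript that carries microRNAs and acts in skeletal growth, lay in one of 6939 bp ranked 341, with the nearest forebrain row 246855 bp away. These 3 rows hold different kinds of mesenchymal gene, and of them the row at Scx had a forebrain row close by.

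The HoxD cluster, whose posterior genes pattern the limb along its length, held several limb only rows. Hoxd9 lay in one of 15140 bp, chr2:74524314-74539453, together with a point of Hoxd10 that rests on a single peak. Evx2, the neighbour of the cluster, lay in one of 9879 bp. Limb only rows no more than 25 kb apart formed a run of 9 rows here, 40902 bp in all over 105460 bp of the cluster. A run of 11 narrower limb only rows, 17573 bp in all, was spread over 116417 bp at the HoxB cluster and held the starts of Hoxb2 and Hoxb9. The remaining rows of the set held Evx1 beside the HoxA cluster (7763 bp), the ubiquitin ligase Wwp2 (7099 bp), Lbx1 of migrating muscle precursors (6924 bp) and Tbx1, a T-box factor of mesoderm (6771 bp). Wwp2 has more than 1 start in the files, and another of them lay in a forebrain row of 2367 bp.

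The widest forebrain only rows included rows at Nr2e1, Fezf2 and Six3, regulators of the forebrain, and rows at genes of other roles. The widest, 12701 bp, held a start of Myo10, an unconventional myosin of filopodia, and another start of Myo10 lay in a limb row of 4454 bp. Nr2e1 lay in a forebrain only row of 10310 bp, chr10:42297101-42307410, which ranked 423 in its list. Fezf2 lay in one of 9373 bp, with no limb row within 53691 bp. Nr2e1 thus had both a wide and a well ranked row, while the row at Fezf2 ranked 7072.

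Several of these genes set up a part of the forebrain. Six3, which specifies the anterior forebrain and eye field, lay in a row of 7231 bp whose edge was 1083 bp from a limb row. Nkx2-1, listed in the files under its older name Titf1, specifies ventral forebrain and lay in a row of 6098 bp. Sox3, a progenitor factor on chromosome X, lay in one of 6514 bp, with the nearest limb row 484599 bp away. Dmrt3, a factor of the dorsal telencephalon, lay in one of 5898 bp, Foxd1, a forkhead factor, in one of 5706 bp, and Wnt8b, a Wnt ligand of the cortical hem, in one of 5155 bp. A neuronal gene was among them too: Slc32a1, the vesicular transporter of inhibitory transmitters, lay in a row of 6467 bp. Myt1, a zinc finger factor of neuronal differentiation, lay in a forebrain only row of 6943 bp, and another of its starts lay in a limb row of 2168 bp.

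Regions present in both lists but much wider in limb were led by the HoxA cluster. A single limb row of 54882 bp, chr6:52164454-52219335, held the starts of Hoxa10 and Hoxa13 and, by points that rest on a single peak, those of Hoxa7 and Hoxa9. The forebrain list had 1119 bp in the same region, a 49-fold difference, and the starts of Hoxa10 and Hoxa13 lay outside the forebrain row. The next widest limb row, 20974 bp at Bahcc1, was 15435 bp wide in forebrain and so differed by less than 2-fold. Hoxc9, from the HoxC cluster, lay in a region of 9279 bp in limb and 1018 bp in forebrain.

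T-box genes were among the rest. Tbx2 and Tbx4, neighbours on chromosome 11, lay in limb rows of 17007 bp and 13630 bp against forebrain rows of 2648 bp and 1155 bp. Tbx15, a factor of limb and skin mesenchyme, lay in 11306 bp in limb and 959 bp in forebrain. Lmx1b, which specifies dorsal limb, lay in 14387 bp against 5162 bp, and Twist1, a mesenchymal bHLH factor, in 8735 bp against 975 bp. Igf2, the fetal growth factor, lay in 11701 bp in limb and 1258 bp in forebrain. The starts of Tbx2, Tbx4, Twist1, Igf2 and Hoxc9 lay in the limb row alone, so the short forebrain rows in these regions were at other positions. Fli1, an ETS factor of endothelium and mesenchyme, had 12058 bp against 3291 bp and Ebf3 had 15086 bp against 6712 bp. Rara, a retinoic acid receptor, entered the set with a region of 9798 bp against 2341 bp, but another of its starts lay in a forebrain row of 11632 bp, so the gene as a whole was not wider in limb.

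The region with the largest width difference in favour of forebrain held sequence records with no gene symbol, at 29411 bp in forebrain and 2952 bp in limb, and lay 87.6 kb from the start of Mef2c. Pou3f3 lay in a forebrain row of 31425 bp, chr1:42740714-42772138, the widest of its list, against 8693 bp of limb rows in the region. Pax6, the paired box factor of cortical progenitors and eye, lay in 23468 bp in forebrain and 1790 bp in limb, a 13.1-fold difference. Nr2f2 and Nr2f1, nuclear receptors that pattern the cortex and its interneurons, lay in 26662 bp against 7779 bp and in 16018 bp against 2773 bp. Each of these forebrain rows was wider than the fifth widest limb row, the 15140 bp at Hoxd9.

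Sox2, the factor that maintains neural progenitors, lay in 21267 bp against 3839 bp and Pou3f2 in 22661 bp against 5705 bp. The head organizer genes Otx1 and Otx2 lay in 16503 bp against 2568 bp and in 14455 bp against 3366 bp. Zic1, a zinc finger factor of dorsal neural tissue, lay in 12196 bp in forebrain and 976 bp in limb. The starts of Pou3f3, Pou3f2, Nr2f1, Otx2 and Zic1 were covered in forebrain alone. Sequence records with no gene symbol also accounted for 2 further regions. One had 22450 bp against 1358 bp and lay 30.0 kb from Mef2d, and one had 22677 bp against 4400 bp and lay 29.5 kb from Polg.

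**Figure D3:**
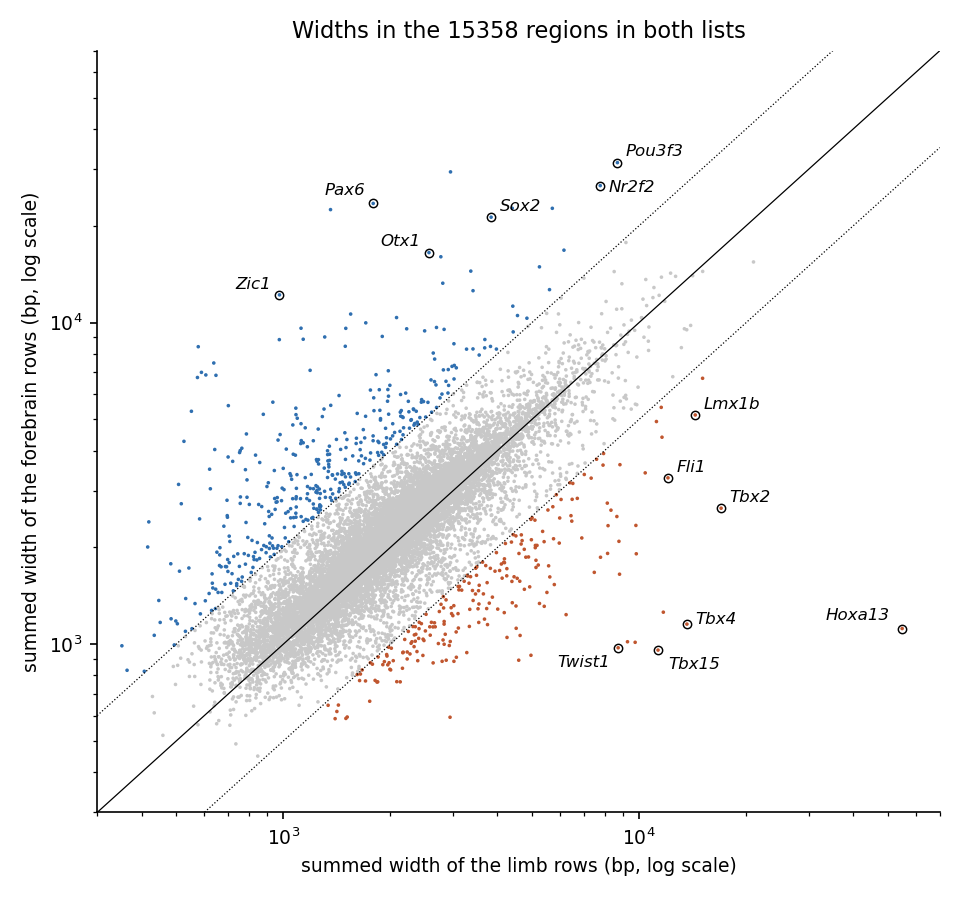
Summed width of the forebrain rows (vertical axis, bp, log scale) against that of the limb rows (horizontal axis, bp, log scale) in each of the 15358 regions in both lists, with the line of equal width (solid) and the 2-fold lines (dotted). The 224 regions wider in limb (orange) and the 398 wider in forebrain (blue) include the circled regions at named genes, of which that of Hoxa13 stands farthest from the line.

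Gene lists were described by the class of the gene start, beside all 16001 genes with a start. Of all genes, 11226 had starts in rows of both tissues (70.2%), 432 in a limb row only (2.70%), 282 in a forebrain row only (1.76%) and 4061 in no row (25.4%). Of the genes with starts in both, the row was 2-fold or more wider in limb for 1.17% and in forebrain for 2.18%. The lists below were chosen with earlier results of these data known and overlap the genes named above, so their counts are a description.

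Transcription factors of the limb leaned to limb rows. Of 37 with a start, 12 were in a limb row only and 1 in a forebrain row only, and of the 22 in both, 11 were 2-fold or more wider in limb and 0 in forebrain. The median width of those in both was 6769 bp in limb and 2619 bp in forebrain, against 2233 and 2449 bp over all genes in both. With the best ranked 50% of each list, 28 were in a limb row only and 0 of those in both were wider in limb. That cut drops lower ranked partner rows of forebrain, so a gene in rows of both can pass to a limb row only. Beside the genes already named, Foxc1 had a limb row of 8158 bp and Twist2 one of 3948 bp, with the starts in no forebrain row. Tbx3, which marks the limb margins, had 8814 bp in limb and 1651 bp in forebrain, Msx1, a homeobox factor of undifferentiated mesenchyme, 8338 and 2611 bp, and Osr2, a zinc finger factor of joints, 7793 and 1864 bp. Prrx1, which marks limb mesenchyme, was wide in both at 8403 bp and 6979 bp, as was Sall1 at 10323 and 9006 bp. Foxd1 was the member in a forebrain row only, and Hand1 and Hic1 were in no row.

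Of 21 Hox genes with a start, 11 were in a limb row only, 0 in a forebrain row only, 2 in both and 8 in no row. Hoxd1, one of those in both, had 1231 bp in limb and 972 bp in forebrain. All 8 starts in no H3K4me3 row, among them those of Hoxa5, Hoxb6 and Hoxc13, lay in a limb H3K27me3 row and 5 of them in a forebrain H3K27me3 row. The start of Hoxa5 lay 2925 bp from the nearest limb H3K4me3 row. Of 39 Hox genes, 21 could be placed by peaks that agreed, so the counts do not cover the whole clusters.

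Signalling genes of the limb differed less. Of 33, 30 had starts in both tissues, 3 in a limb row only and 0 in a forebrain row only, and the median limb over forebrain ratio of those in both was 1.03, against 0.93 over all genes. Those in a limb row only were Gdf5 (2964 bp), a ligand of joint formation, Aldh1a2 (1723 bp), which makes retinoic acid, and Fgf4 (882 bp), a ligand of the apical ridge. Wider in limb were the receptors Pdgfra (11544 against 4615 bp) and Pdgfrb (3731 against 1344 bp), the retinoic acid hydroxylase Cyp26b1 (9765 against 3254 bp), and the ligands Fgf9 (7016 against 3371 bp), Tgfb2 (3328 against 1548 bp) and Fgf8 (2168 against 941 bp). Wnt3, with 1876 bp in limb and 4977 bp in forebrain, was wider in forebrain. Among the ligands under 2-fold, Bmp7 had 4991 bp in limb and 4384 bp in forebrain and Shh 3566 and 5123 bp. Of 21 cartilage and connective tissue genes, 3 were in a limb row only (Runx3, Col9a1 and Hapln1), 16 in both and none of these differed 2-fold.

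Transcription factors of the forebrain leaned to forebrain rows. Of 50 with a start, 23 were in a forebrain row only and 0 in a limb row only, and of the 22 in both, 13 were 2-fold or more wider in forebrain and 0 in limb. The median width of those in both was 7976 bp in forebrain and 2730 bp in limb. With the best ranked 50% of each list, 21 were in a forebrain row only and 1 of those in both was wider in forebrain. Partner rows of limb that rank lower are dropped by that cut as well. Beside the genes already named, Zic2 had a forebrain row of 14903 bp, Lhx5 one of 10366 bp, Fezf1 one of 9597 bp, Sox1 one of 9526 bp and Emx1, a factor of the dorsal cortex, one of 9425 bp, with the starts in no limb row. Emx2, its paralog, had 16792 bp in forebrain and 5071 bp in limb, Dmrta2 13256 and 1953 bp, and Dlx1, a factor of the ventral telencephalon, 11248 and 4418 bp. Some members were wide in both tissues: Tcf7l2, an effector of Wnt signalling, had 10360 bp in forebrain and 10163 bp in limb, and Bcl11a had 8752 and 10620 bp. Six6, Zic5, Pou3f4 and Otp were among the members with starts in no row.

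Genes of neuronal differentiation leaned the same way with narrower rows. Of 29 proneural and neurogenic factors, 6 were in a forebrain row only, 0 in a limb row only, 18 in both and 5 in no row, and of those in both 6 were wider in forebrain and 1, Ebf3, in limb. Hes5, the Notch target of progenitors, had a forebrain row of 10318 bp and Scrt1 one of 8077 bp, with no limb row at the start. The Notch ligand Dll1 had 10518 bp in forebrain and 3052 bp in limb, and Olig2, a factor of ventral progenitors, 9565 and 1000 bp. The proneural gene Neurog2 (4518 and 2605 bp) stayed under 2-fold.

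Of 55 genes of neuronal structure and synapse, 10 were in a forebrain row only and 0 in a limb row only, and 17 of the 38 in both were wider in forebrain. The median limb over forebrain ratio of those in both was 0.55. Tubb3, the neuronal tubulin, had 5975 bp in forebrain and 2137 bp in limb, Gad1, which makes GABA, 8272 and 2374 bp, and Crmp1, a mediator of axon guidance, 8432 and 2273 bp. In a forebrain row only were Elavl3 (3756 bp), Stmn2 (3272 bp) and Syp (2903 bp), among others. Of 26 genes of neural progenitors and radial glia, 3 were in a forebrain row only (Sfrp1, Ttyh1 and Wnt8b) and 5 of the 22 in both were wider in forebrain. Nes, the progenitor intermediate filament, had 6006 bp in forebrain and 4795 bp in limb, and Notch1 7939 and 7132 bp, both under 2-fold.

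**Figure D4:**
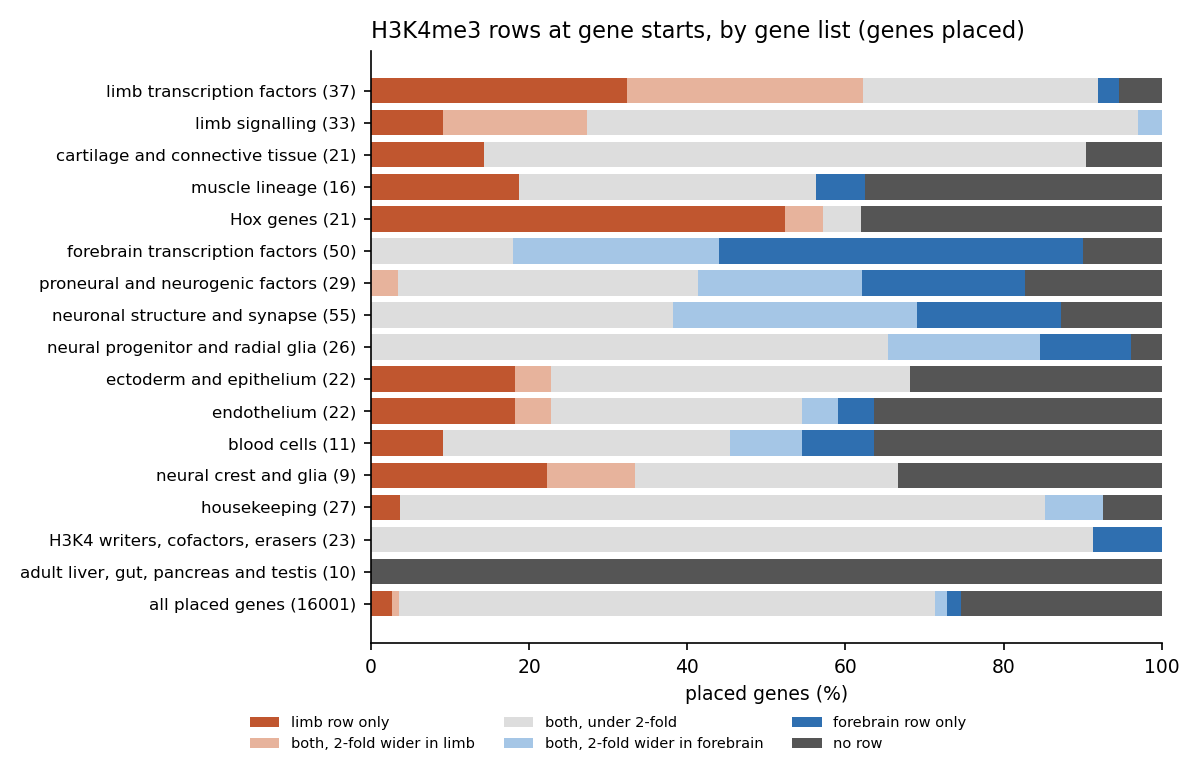
Share of the placed genes of each list (horizontal axis, %) by the class of the gene start, with the number of genes placed in parentheses and all genes in the bottom bar. Limb only is the largest tissue share in limb transcription factors and Hox genes (12 of 37 and 11 of 21), and forebrain only in forebrain transcription factors (23 of 50).

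Lists for other cells that the dissected tissue could hold were checked in the same way. Of 22 endothelial genes, 4 were in a limb row only, 1 in a forebrain row only, 9 in both and 8 in no row. Kdr, Flt1 and Erg were among those in both, and Cdh5 and Pecam1 were in no row of either tissue. Of 22 epithelial genes, 4 were in a limb row only, 0 in a forebrain row only, 11 in both, such as Cdh1, and 7 in no row. Tfap2a led those in a limb row only with 11191 bp. Of 16 muscle genes, 3 were in a limb row only (Lbx1, Six4 and Myod1) and 1 in a forebrain row only (Pax7, 918 bp). A further 6 were in both, among them Pax3 and Met, and 6 were in no row, among them the structural genes Des, Actc1 and Tnni1. Of 9 genes of neural crest and glia, 2 were in a limb row only, Tfap2b and Foxd3, 4 in both, such as Erbb3 and Ngfr, and 3 in no row. The start of Sox10 was in no row but lay 699 bp from a limb row. Of 11 blood genes, 1 was in a limb row only, Gfi1, and 1 in a forebrain row only, Slc4a1. A further 5 were in both, among them Runx1 and Ikzf1, and 4 were in no row, among them Ptprc and Csf1r. The part of these cells in the differences between the tissues was not tested.

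Lists that serve as a reference were described in the same way. Of 27 housekeeping genes, 24 were in both, with a median ratio of 0.89, against 0.93 over all genes. Of the 24, 2 were 2-fold wider in forebrain, among them Eef2 (4195 bp in limb and 8524 bp in forebrain), against 2.18% of all genes in both. Of 23 genes for writers, cofactors and erasers of H3K4 methylation, 21 were in both and none of these differed 2-fold. The other 2, Kmt2c (4241 bp) and Kdm5a (3173 bp), were in a forebrain row only, 8.70% of the list against 1.76% of all genes. All 10 placed genes of adult liver, gut, pancreas and testis were in no row.

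The other histone lists were measures that the classes did not use. At gene starts, limb H3K27ac covered 31.7% of the starts in a limb row only (27.4% to 36.3%), 72.5% of those in both and wider in limb, 36.3% of those in both and wider in forebrain (30.3% to 42.7%) and 10.99% of those in a forebrain row only (7.59% to 15.2%). Among starts in both with less than a 2-fold difference the share was 72.5%, and among starts in no row 3.08%. Limb H3K27ac was thus less frequent at starts biased to forebrain than at those biased to limb, in either form, and no more frequent at those wider in limb than at unbiased ones. No H3K27ac list of forebrain was used here, so the converse comparison was not made.

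Polycomb chromatin of the limb was common at starts of every tissue-biased class. Limb H3K27me3 covered 59.9% of starts in a forebrain row only (54.0% to 65.7%), 66.1% of those wider in forebrain (59.8% to 72.0%), 52.8% of those in a limb row only (47.9% to 57.6%) and 51.1% of those wider in limb (42.3% to 60.0%). The share was 25.7% among starts in both without a 2-fold difference (24.9% to 26.5%) and 10.8% among starts in no row. Forebrain H3K27me3, a list of 19.1 Mb against 45.8 Mb for limb, covered 12.04% of starts in a limb row only, 16.8% of those wider in limb, 13.8% of those in a forebrain row only, 6.94% of those wider in forebrain and 3.98% of the rest in both. The intervals of the limb only and forebrain only shares overlapped for forebrain H3K27me3 (9.12% to 15.5% and 10.02% to 18.4%) and for limb H3K27me3.

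H3K4me1 of limb covered 83.8% of starts in a limb row only (80.0% to 87.1%) and 59.2% of those in a forebrain row only (53.2% to 65.0%), while forebrain H3K4me1 covered 41.2% and 46.1%, with overlapping intervals (36.5% to 46.0% and 40.2% to 52.1%). By width, limb H3K4me1 covered 74.8% of starts wider in limb and 83.3% of those wider in forebrain, with overlapping intervals (66.5% to 82.0% and 78.0% to 87.7%). Forebrain H3K4me1 covered 73.3% (64.85% to 80.63%) and 58.4% (51.92% to 64.61%) of these classes. Unbiased starts in both had 69.2% for limb and 40.9% for forebrain H3K4me1.

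Several marks were read together at forebrain transcription factors. All 23 of those with a start in a forebrain row only, and all 13 of those wider in forebrain, had the start in a limb H3K27me3 row, while forebrain H3K27me3 covered 6 of the 23 and 2 of the 13. Limb H3K27ac covered 0 of the 23 and 1 of the 13, Dlx1. Pax6, Sox2, Otx1 and Nr2f2 among them also had a narrower limb H3K4me3 row at a start, that is, both marks in limb. Limb H3K27me3 was not particular to these classes of the list. It also covered 6 of the 9 members in both under 2-fold and 4 of the 5 in no row. Over all genes it covered 59.9% of starts in a forebrain row only and 66.1% of those wider in forebrain. At limb transcription factors H3K27ac and H3K27me3 of limb were both common. Of the 12 in a limb row only, 9 starts lay in limb H3K27ac, 10 in limb H3K27me3 and 3 in forebrain H3K27me3. Of the 11 wider in limb these counts were 10, 10 and 4, and of the 11 in both under 2-fold 10, 7 and 4. Over all genes the shares were 31.7%, 52.8% and 12.04% in a limb row only, and 72.5%, 51.1% and 16.8% wider in limb. Tbx5, Pitx1 and Evx2 are examples with H3K27ac, H3K27me3 and H3K4me3 rows of limb at the start, which in a mixture of cells need not be on the same chromosomes.

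**Figure D5:**
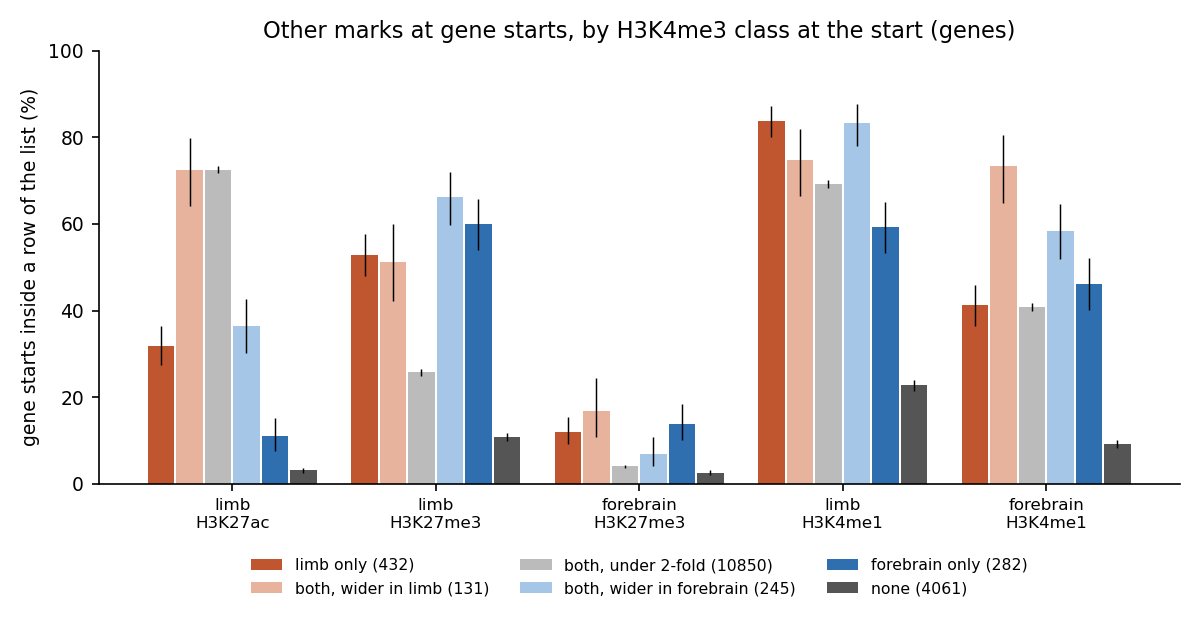
Share of gene starts inside a row of 5 other histone lists (vertical axis, %) by the H3K4me3 class of the start (bar colours, number of genes in parentheses), with exact 95% binomial intervals as thin lines. Limb H3K27ac is highest at starts in both without a bias and wider in limb (72.5% each), and limb H3K27me3 is higher in each of the 4 tissue-biased classes (51.1% to 66.1%) than in the unbiased one (25.7%).

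SMARCA4, the ATPase of the SWI/SNF remodelling complex, was mapped by a FLAG tag in several tissues. Forebrain SMARCA4 covered 24.1% of starts in a forebrain row only (19.2% to 29.5%) and 19.4% of those in a limb row only (15.8% to 23.5%), and limb SMARCA4 covered 9.22% (6.11% to 13.2%) and 19.4% (15.8% to 23.5%). Neural tube SMARCA4 covered 46.8% of starts in a forebrain row only (40.9% to 52.8%) and 35.9% of those in a limb row only (31.4% to 40.6%), and face SMARCA4 covered 23.8% (18.9% to 29.2%) and 47.7% (42.9% to 52.5%). The intervals of these classes did not overlap for the limb, neural tube and face lists and overlapped for forebrain SMARCA4. By width, limb SMARCA4 kept its order, with 38.9% of starts wider in limb (30.5% to 47.8%) and 21.2% of those wider in forebrain (16.3% to 26.9%). Forebrain SMARCA4 did not, with 42.0% (33.4% to 50.9%) and 40.4% (34.2% to 46.8%) of these classes and overlapping intervals. Neural tube SMARCA4 covered 74.0% (65.7% to 81.3%) and 68.2% (61.9% to 73.95%) of these classes. Face SMARCA4 covered 57.3% (48.3% to 65.8%) and 55.5% (49.0% to 61.8%), and both pairs of intervals overlapped. Unbiased starts in both were covered more often than either class of 1 tissue, at 35.5% for limb, 40.0% for forebrain, 70.9% for neural tube and 63.2% for face SMARCA4. Control lists of tagged samples also overlapped these rows, the face EP300 control 44.0% of limb only and 39.7% of forebrain only rows within 1 kb of a start. That control also overlapped rows in both more often. It overlapped 70.66% of all limb rows in both against 18.79% of all limb only rows. In forebrain these shares were 70.85% and 17.2%. How much of the SMARCA4 coverage such background makes up was not tested.

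Promoter sequence differed between the classes as well. Among genes with exactly 1 promoter in the RefSeq table, the median number of CG dinucleotides in 300 bases was 23 for starts in both without a 2-fold difference (n = 6123), 22 for those wider in limb (n = 67) and 20 for those wider in forebrain (n = 121). It was 11 for starts in a limb row only (n = 204), 15 for those in a forebrain row only (n = 119) and 6 for those in no row (n = 1495), against 7 over all 22862 such genes of the table. At least 10 CG were found in 57.4% of limb only (50.3% to 64.2%) and 70.6% of forebrain only starts (61.5% to 78.6%), against 91.9% of unbiased starts in both and 42.9% of all genes in the table. The motif TATAAA, searched on both strands, was in 16.4% of promoters wider in limb (8.49% to 27.5%), 9.31% of limb only (5.70% to 14.2%), 7.44% of those wider in forebrain (3.46% to 13.7%), 9.24% of forebrain only (4.71% to 15.9%), 5.54% of unbiased (4.98% to 6.14%), 13.7% of starts in no row and 14.8% of all promoters in the table. The printed promoters span this range, from the 45 CG of Hoxa13, in a wide limb domain, to the 0 CG of Ins1, in no row. Wide rows also held starts with few CG: Tbx4, in a limb row of 13630 bp, had 8. The promoter of Nr2f2, a gene with a start in a forebrain row of 26662 bp, had 2 and is not printed.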

How the data were processed

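H3K4me3 was immunoprecipitated from limb and forebrain of CD1 embryos, 1 library per tissue, and fragments of 300 to 500 bp were sequenced in reads of 36 or 50 bp, per the labels' protocols. The protocol text of these samples names heart and hindbrain, although titles, source and tissue tags say limb and forebrain. The submitters' processing notes name BWA and build mm9. For the peak caller nothing is stated, and the track line of each list names an input, per the file headers. The deposited lists give positions and a rank, with no signal, count or p-value, so depth is unknown and precision rests on the number of rows alone.

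Starts were taken as BED positions counted from 0 and are printed from 1. Rows were classed by overlap of at least 1 bp, and widths were summed over the rows of a tissue in a region. The deposited tables of the series pair peaks with a nearest gene and its distance but give no gene coordinates. A gene start was set where at least 2 peaks agreed on it, which placed 18934 of 23432 gene and transcript names, of 16001 symbols, with 0 conflicts. Genes far from every peak are missing from this set. A gene with several starts was given its widest row in each tissue. Names were matched to RefSeq (GRCm38.p6) by symbol, or by synonym and chromosome, for 13024 symbols; promoter coordinates are of that build and were not joined to mm9 rows.

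Named genes are those with a start in the 12 widest rows of 1 tissue that hold one, in the 12 shared regions of largest width difference among those 2-fold or more wider in a tissue, in the 5 widest rows of a tissue, and members of 16 gene lists. Some genes that this rule names are not reported here. Of the 499 list entries, 412 could be placed. The members and lists were chosen with earlier results of these data known. Class and overlap code was tested on simulated data. No test between tissues was possible with 1 library each. Python 3.11.15, numpy 2.4.6, scipy 1.17.1 and matplotlib 3.10.9 were used. Alternatives varied the overlap rule, list length, rank, narrow rows, input overlap, joining, fold, and the distance and support of gene starts. The FLAG lists and inputs of the series served only for gene starts and overlaps. Of the 34 samples, 4 have no list that was analysed here.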

Additional observations from a re-analysis of the deposited data

How the results depend on the processing

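The shares are limited by list length and by the unknown depth: a row absent from 1 list may be a weak row under that list's cut, and 1 library per tissue gives no error between embryos. Values depend on how deep into each list the comparison goes. At equal list length, limb only rows were 9.822% and forebrain only rows 9.967% of their lists, and limb only rows at a gene start 18.34%. With the best ranked 50% of each list they were 18.95% and 3.711%, and 78.55% and 77.52% of such rows were at a start. That setting also drops partner rows that rank lower in the other list. Without rows under 1 kb the shares were 12.89% and 9.841%, with 18.06% and 23.82% at a start.

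The share of shared regions wider in limb became 1.94% with the ratio divided by its median, 0.3191% at 3-fold, 0.4271% in the best ranked 50% and 1.239% without rows under 1 kb. The share wider in forebrain became 2.11%, 0.7879%, 0.9672% and 1.887% in the same settings, 2.055% at equal list length and 2.342% with only regions of 1 row per tissue. Forebrain stayed above limb in each of these, most narrowly with the ratio divided by its median, at 324 against 298 regions. Limb only rows at a start were 9.179% with the start inside the row, 21.63% within 5 kb and 8.752% with starts on which 3 peaks agree, and forebrain only rows 29.28% within 5 kb and 15.17% with 3 peaks.

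Overlap of limb only rows with limb H3K27ac was 42.65% at equal list length, 66.17% in the best ranked 50%, 49.39% without rows under 1 kb and 31.92% for rows within 1 kb of a start. For limb H3K27me3 these were 30.83%, 53.03%, 30.9% and 47.36%. Overlap of forebrain only rows with limb H3K27ac was 14.37%, 20.85% and 15.33% in the first 3 settings, and with limb H3K27me3 36.93%, 70.36% and 41.12%, and 50% near a start. In the full lists, limb H3K27ac overlapped 37.48% of limb only and 12.26% of forebrain only rows, and limb H3K27me3 24.22% and 33.42%. Forebrain only rows stayed below limb only rows for limb H3K27ac and above them for limb H3K27me3 in each setting run. Near a start, however, the limb H3K27me3 intervals overlapped (42.9% to 57.1% for forebrain only and 42.8% to 52.0% for limb only rows). Forebrain H3K27me3 had the same order, with 12.33% of limb only and 15.26% of forebrain only rows. Forebrain only rows were also wider (median 1223 against 919 bp), and the part of width in these overlaps was not tested. The other 29 values of these results moved by less than their counting interval.

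Counts of listed genes were recomputed under 5 alternatives chosen after seeing the data. Forebrain transcription factors in a forebrain row only ranged from 18, with rows within 1 kb of the start counted, to 24, and limb transcription factors in a limb row only from 10 to 12, except that the best ranked 50% gave 28. In that setting, 0 limb factors in both were wider in limb and 1 forebrain factor in both was wider in forebrain. It also drops lower ranked partner rows, which moves genes out of the class in both. No paired analysis was possible because each tissue is 1 library.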

Other observations

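Some of the best ranked rows were in 1 list only, chosen here after their values were seen. The limb row of rank 1, 5651 bp wide over the start of Fscn1, which bundles actin filaments, was limb only, and the nearest forebrain row was 8798 bp away. The limb row of rank 328 at Atp6v0a2, a proton pump subunit, and that of rank 1162 at Rab8a, a vesicle GTPase, were limb only too. Among forebrain only rows, Aurkb, a mitotic kinase, ranked 420, Suz12, a Polycomb subunit, 1812, and Kdm5a, an H3K4 demethylase listed as Jarid1a, 1843. Whether the mark is absent in the other tissue at these starts cannot be read from lists of rows.

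Six4, a homeobox factor of muscle precursors, had a limb only row of 4108 bp ranked 489.

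Chromosome X had the lowest limb only share among the autosomes and X, 9.81% of 520 rows (7.39% to 12.7%), against 18.8% to 25.1% on the autosomes. The forebrain only share on X was 4.50% of 489 rows (2.84% to 6.73%), within the 4.13% to 9.08% of the autosomes. Both tissues were pooled from male and female embryos, and the sex make-up of each pool was not tested.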
